A study of Caenorhabditis elegans with 2 samples.

Results

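The proteasome subunit genes of Caenorhabditis elegans were taken as all protein-coding genes of the Ensembl annotation whose symbol starts with pas-, pbs-, rpt- or rpn- followed by a digit. This gave 33 of the 19973 protein-coding genes on the nuclear chromosomes. They fall into 7 core alpha genes (pas), 7 core beta genes (pbs), 6 base ATPase genes (rpt) and 13 lid or base genes (rpn). Chromatin immunoprecipitation followed by sequencing (ChIP-seq) was carried out on whole worms of strain RW12194, in which arid-1 on chromosome V carries a TY1, EGFP and 3xFLAG tag inserted by CRISPR. Both samples are L4 larvae of 47 hours, grown from L1 larvae that were starved after bleaching, and the tagged protein was pulled down with an antibody against GFP. They are biological replicates 1 and 2 of a single group, from separate biosamples of the same strain, so no comparison between groups follows. Whole worms mix all cell types, and the sex was not recorded. An untagged strain was not analysed here.

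The proteasome degrades proteins that carry ubiquitin chains. Its core is a barrel of stacked rings. The outer rings are made of alpha subunits, which gate the entry, and the inner rings of beta subunits, some of which cut peptide bonds. A cap binds to the end of the barrel. The cap's base holds the ATPases that unfold the substrate, together with large scaffold subunits and ubiquitin receptors, and its lid holds the subunit that removes the ubiquitin chain. In the worm, an endoplasmic reticulum form of the transcription factor SKN-1 is known to raise the transcription of proteasome subunit genes when the proteasome is impaired. The ARID domain, after which ARID-1 is named, binds DNA.

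Of the 33 genes, 8 (24.2%) had a summit within 500 bp of the annotated 5' end in the conservative peak list of the series. Of all 19973 coding genes, 5.68% had one. The 8 genes were rpn-3, rpn-9, rpn-10, rpt-6, pas-4, pas-1, pbs-1 and pbs-7, each with 1 summit. The sequence around the summit is shown for those whose summit region holds at least 150 bases free of annotated exons and lies outside chromosomes not printed here. It is given for rpn-3, rpt-6, rpn-9 and pbs-1 on the strand of the gene, from 5' to 3', with up to 100 bases on either side of the summit. The last sequence, for comparison, surrounds the best ranked peak of rpn-13, the highest below the threshold among those with 201 bases free of exons. Capitals mark the pentamers GTCAT or ATCAT, or their reverse complements, which are known as the core of the SKN-1 site. Sequences are from the RefSeq assembly WBcel235, the sequence of ce11.
rpn-3 (chrIII:8447096-8447266, plus strand): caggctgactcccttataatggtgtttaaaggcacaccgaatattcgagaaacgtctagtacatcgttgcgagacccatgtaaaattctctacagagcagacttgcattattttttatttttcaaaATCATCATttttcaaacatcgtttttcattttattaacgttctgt
rpt-6 (chrIII:12370130-12370330, plus strand): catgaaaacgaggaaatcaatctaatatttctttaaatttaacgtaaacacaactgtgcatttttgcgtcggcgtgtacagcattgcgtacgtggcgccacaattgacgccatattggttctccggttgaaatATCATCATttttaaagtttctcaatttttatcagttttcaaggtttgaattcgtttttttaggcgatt
rpn-9 (chrII:11239095-11239295, minus strand): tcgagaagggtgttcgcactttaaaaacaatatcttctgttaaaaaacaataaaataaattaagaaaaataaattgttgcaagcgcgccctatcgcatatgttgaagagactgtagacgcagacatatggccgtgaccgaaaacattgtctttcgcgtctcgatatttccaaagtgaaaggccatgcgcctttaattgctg
pbs-1 (chrIV:1709845-1710045, minus strand): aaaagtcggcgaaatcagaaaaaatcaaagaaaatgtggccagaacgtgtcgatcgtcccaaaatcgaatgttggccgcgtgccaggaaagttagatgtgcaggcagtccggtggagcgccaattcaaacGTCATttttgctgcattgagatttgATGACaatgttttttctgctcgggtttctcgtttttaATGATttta
rpn-13 (chrIII:6342119-6342319, minus strand): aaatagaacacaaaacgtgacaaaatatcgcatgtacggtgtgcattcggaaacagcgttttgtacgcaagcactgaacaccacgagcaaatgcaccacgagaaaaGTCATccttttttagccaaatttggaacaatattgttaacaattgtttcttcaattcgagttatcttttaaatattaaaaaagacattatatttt

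In these sequences rpn-3 and rpt-6 each carry 2 overlapping copies of the A form, pbs-1 carries 3 cores in separate places, rpn-13 carries 1 and rpn-9 carries 0. The longest run that the summit windows of rpn-3 and rpt-6 share on their gene strands is ATCATCATTTTT, 12 bases long. This run was looked for after the sequences had been seen. The 8-base repeat ATCATCAT at its start, on either strand, was present in 2 of the 8 windows of 201 bp around members' summits, those of rpn-3 and rpt-6, and in 1.17% of the 944 such windows at all nuclear promoter peaks. In windows from 50 to 250 bp upstream of annotated 5' ends, the repeat was present in 4 of the 33 members (rpn-3, rpt-6, pas-7 and pbs-4) and in 1.82% of all coding genes. The repeat was taken from rpn-3 and rpt-6, so both counts hold these 2 genes by choice, and neither is a test.

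At least 1 core of either form lay in 7 of the 8 summit windows, all but that of rpn-9. Over all promoter summits this share was 42.4%. The G form, GTCAT, was in 3 windows (pbs-7, pbs-1 and pas-1), against 24.9% of promoter summits, and the A form, ATCAT, in 6, against 24.8%. Short motifs follow base composition, and the members' windows were poorer in G and C. Their median GC share was 36.3%, with a range from 30.3% at pbs-7 to 45.3% at pas-1, against 43.3% for all promoter summits. In the windows upstream of 5' ends, whatever the binding, 69.7% of members and 55.2% of all coding genes held a core of either form, and the median GC shares were 32.8% and 33.8%. For the A form alone the upstream shares were 54.5% of members and 40.4% of all coding genes, and for the G form 39.4% and 26.8%. The part of base composition in these counts was not tested. Of the other motifs searched on both strands, TTTTTT was in 6 member windows (53.2% of promoter summits), TATAAA in 2 (14.4%) and the heat shock unit GAANNTTC in 1, that of rpn-3 (11.9%). CACGTG (5.19%), GAGAGA (28.9%) and GGGCGG (12.6%) were in 0 of the 8. In the windows upstream of 5' ends, GAGAGA was in 18.2% of members and 15.7% of all coding genes. There CACGTG was in 3.03% and 3.98%, and GGGCGG in 3.03% and 5.59%. A match of letters does not show that a factor binds there.

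**Figure D1:**
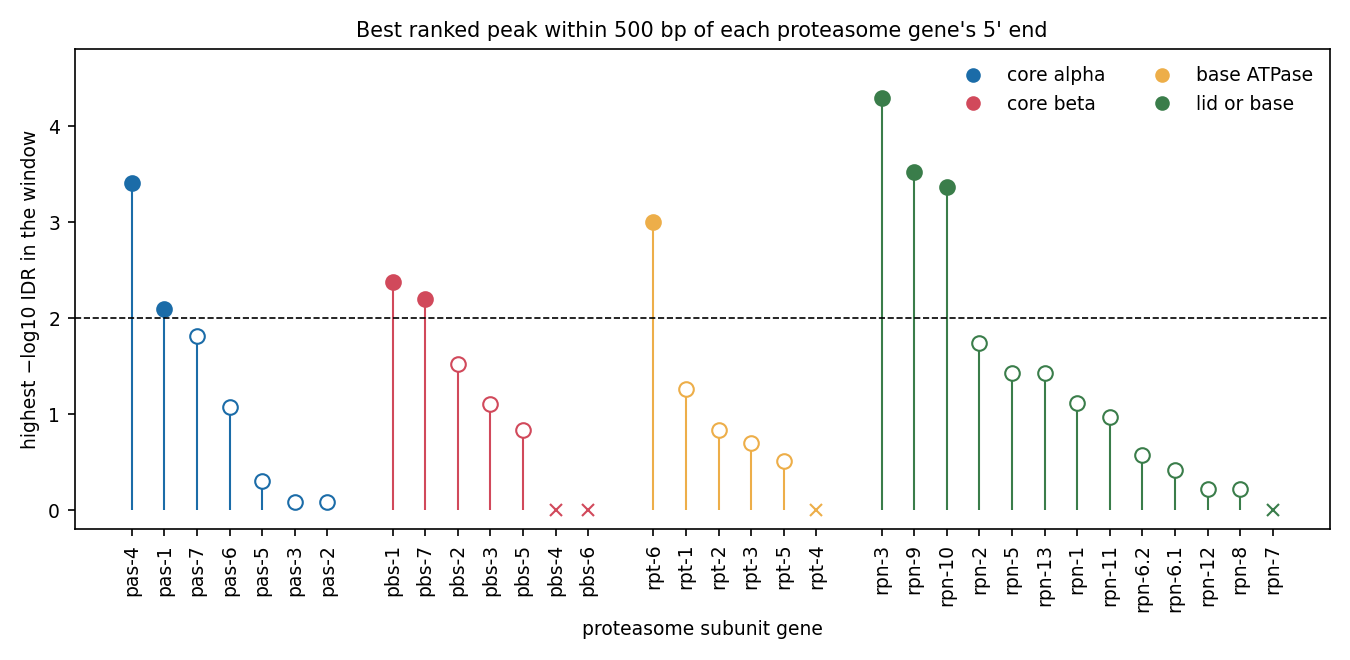
Highest −log10 irreproducible discovery rate (IDR) among ranked peaks of the series with a summit within 500 bp of the 5' end, for all 33 proteasome subunit genes by group. Filled circles are the 8 genes with a summit in the conservative list, open circles are genes below the threshold of 2 (dashed line), and crosses mark the 4 genes with no ranked peak in the window.

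The threshold of the list rests on the IDR, a measure of how repeatable the ranking of a peak is, with higher −log10 values for more repeatable peaks. The conservative list holds peaks with a −log10 IDR of at least 2, an IDR of 0.01. In the ranked list used, 2425 peaks reached that value, against 2330 in the conservative list. Reaching it therefore did not alone place a peak in the conservative list. The authors' signal per peak is their peak caller's own value. How it was scaled from list to list is not stated, and the number of reads behind it is unknown. Signal in the replicates was read from each replicate's ranked list at the peak that holds the conservative summit. An SD over the replicates may therefore include a difference in scale. On the log2 scale, replicate 2 was above replicate 1 by a median of 0.11, with an SD of 0.43, over the 899 nuclear promoter peaks with both values.

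By series signal the lid subunit genes rpn-3 (145) and rpn-9 (93.8) held the highest peaks of the family, followed by pas-4 (89.6), rpt-6 (84.3) and rpn-10 (80.6). In rpn-3, which codes for a lid subunit, the signal was 43.1 in replicate 1 and 105 in replicate 2, a mean of 73.9 ± 43.6 (SD, n = 2). Its peak at chromosome III 8447031 to 8447300 had a series signal of 145 and ranked 113th of the 944 promoter peaks. The replicates thus differed more at rpn-3 than at the other members, with a log2 ratio of 1.28. Of the 899 promoter peaks compared, 2 (0.222%) had a ratio of replicate 2 over replicate 1 at least as high, rpn-3 included. Differences in favour of replicate 1 were not counted, such as that of a peak with 106 in replicate 1 and 38.1 in replicate 2. In rpn-9, another lid subunit gene, the signal was 40.2 and 52.9 in replicates 1 and 2, a mean of 46.5 ± 8.97 (SD, n = 2), at chromosome II 11239060 to 11239329. In rpn-10, which codes for a ubiquitin receptor of the cap, it was 41.7 and 44.8, a mean of 43.3 ± 2.14 (SD, n = 2), at chromosome I 10732230 to 10732499. For rpn-10 the replicates lay close to each other, with a log2 ratio of 0.10. For rpn-9 the ratio was 0.40, about the SD of 0.43 over promoter peaks. By its value in replicate 2, rpn-3 ranked above both genes. In replicate 1 alone the signals of rpn-3, pas-4, rpn-10 and rpn-9 lay between 40.2 and 43.1.

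Among the base ATPase genes, rpt-6 was the single one with a summit. Its signal was 30.9 in replicate 1 and 50.1 in replicate 2, a mean of 40.5 ± 13.6 (SD, n = 2), at chromosome III 12370095 to 12370364. RPT-6 is one of the ATPases of the ring that unfolds substrates. The gene model of rpt-4, another of these ATPases, starts 2385 bp from the nearest summit, yet that summit lies 169 bp upstream of the 5' end of a shorter annotated transcript of rpt-4. The peak there, at chromosome II 43696 to 43965, has a series signal of 67.0. Counting 5' ends of all transcripts, rpt-4 is therefore added, and 9 of the 33 genes have a summit, against 6.10% of coding genes.

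The core genes with summits had lower signals, apart from pas-4. In pas-4, an alpha subunit gene, the signal was 42.9 in replicate 1 and 45.1 in replicate 2, a mean of 44.0 ± 1.58 (SD, n = 2), at chromosome I 8728473 to 8728742. In pas-1, also for an alpha subunit, it was 27.5 and 27.3, a mean of 27.4 ± 0.211 (SD, n = 2), at chromosome V 14422334 to 14422603. The replicates gave nearly the same value at both alpha genes. The beta subunit gene pbs-1 had 25.1 in replicate 1 and 39.8 in replicate 2, a mean of 32.5 ± 10.4 (SD, n = 2), at chromosome IV 1709810 to 1710079. The beta subunit gene pbs-7 had 34.5 and 26.1, a mean of 30.3 ± 5.88 (SD, n = 2), at chromosome I 8696296 to 8696565. The order of pbs-1, pbs-7 and pas-1 was not the same in the replicates, and neighbours in the order of means of all 8 genes differed by less than the larger of their SDs. Replicate 2 had the higher value at 6 of the 8 genes, all but pas-1 and pbs-7.

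**Figure D2:**
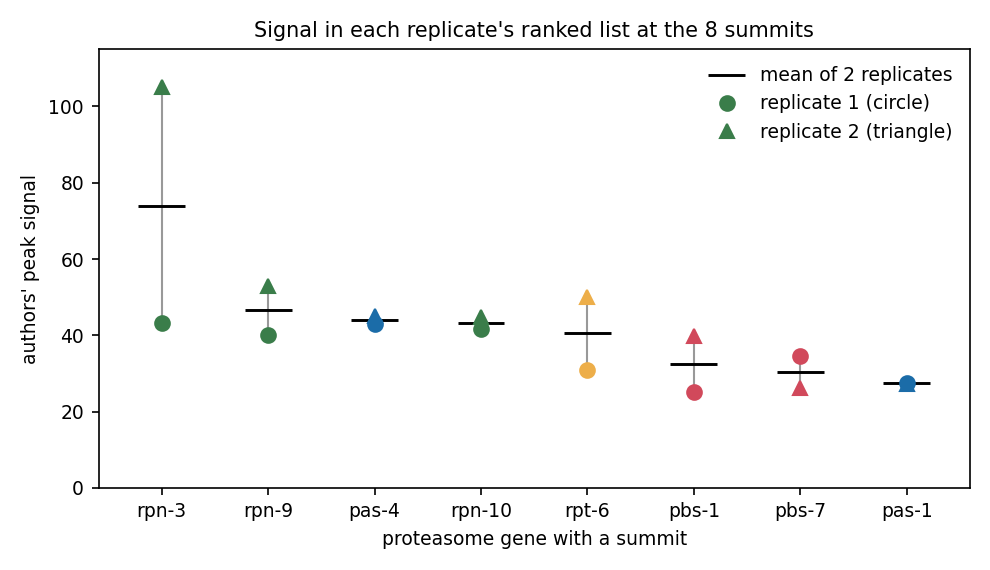
Signal of the peak holding the summit in the ranked lists of replicate 1 (circles) and replicate 2 (triangles) for the 8 genes, coloured by group as core alpha in blue, core beta in red, base ATPase in yellow and lid or base in green. Black bars are means of the 2 replicates. The rpn-3 pair, at 43.1 and 105, is the widest, and the pas-1 pair the narrowest.

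Set among all promoter peaks, these peaks were of middling height. Their median series signal was 82.5, with a range from 50.5 to 145, and the median of the 944 nuclear promoter peaks was 78.0. The members ranked from 113th (rpn-3) to 907th (pas-1). Those closest to the threshold on the upper side were pas-1 with a −log10 IDR of 2.09, pbs-7 with 2.20 and pbs-1 with 2.38, and on the lower side pas-7 with 1.81, rpn-2 with 1.74 and pbs-2 with 1.52. The closest pair across the line was pas-1 and pas-7.

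**Figure D3:**
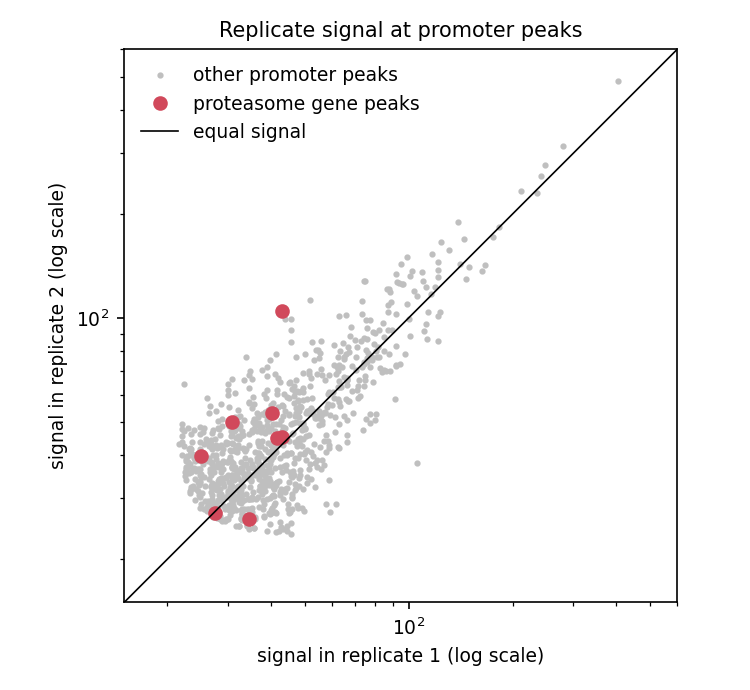
Signal in replicate 2 against signal in replicate 1, both on log scales, at the nuclear promoter peaks with a value in both replicates. Red points are the 8 proteasome gene peaks, grey points the other promoter peaks, and the line marks equal signal. The red point far above the line is rpn-3, and the others lie within the grey cloud.

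The replicates' own thresholded lists held fewer of the genes. In the list of replicate 1, 2 of 33 genes (6.06%) had a summit, pas-4 and rpn-10, against 3.02% of all coding genes. In that of replicate 2, 4 genes (12.1%) had one, pas-4, rpn-3, rpn-9 and rpt-6, against 3.04%. Thus pas-4 alone was in both replicates' own lists, and pas-1, pbs-1 and pbs-7 were in neither. These lists hold 1230 and 1257 peaks, against 2330 in the conservative list. The other thresholded list of the series, with 2244 peaks, held 7 of the genes, all but pas-1 (21.2%, against 5.45% of coding genes). Among the 1165 conservative peaks with the highest signal, 5 genes had a summit (15.2%, against 3.06%), namely rpn-3, rpn-9, rpn-10, rpt-6 and pas-4. The core beta genes had 0 of 7, a count close to the share of 3.06% over all coding genes.

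Other windows and gene models gave 7 to 9 genes. With windows of 250 bp the count was 7 (21.2%), without rpn-9, against 3.52% of coding genes. With windows from 1000 bp upstream to 500 bp downstream it was 9 (27.3%), against 7.09%, and the added gene was the alpha subunit gene pas-5. The peak that added pas-5 lies 939 bp upstream and has a series signal of 2.3, among the low values of the list. When a peak was required only to overlap the window by 1 bp, the count was also 9, against 6.25%. The added gene was rpn-8, for a lid subunit, with a summit 602 bp downstream of its 5' end and a signal of 61.0. With 5' ends of the RefSeq annotation, matched by symbol for 19423 genes, the same 8 genes had a summit, against 5.59%.

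**Figure D4:**
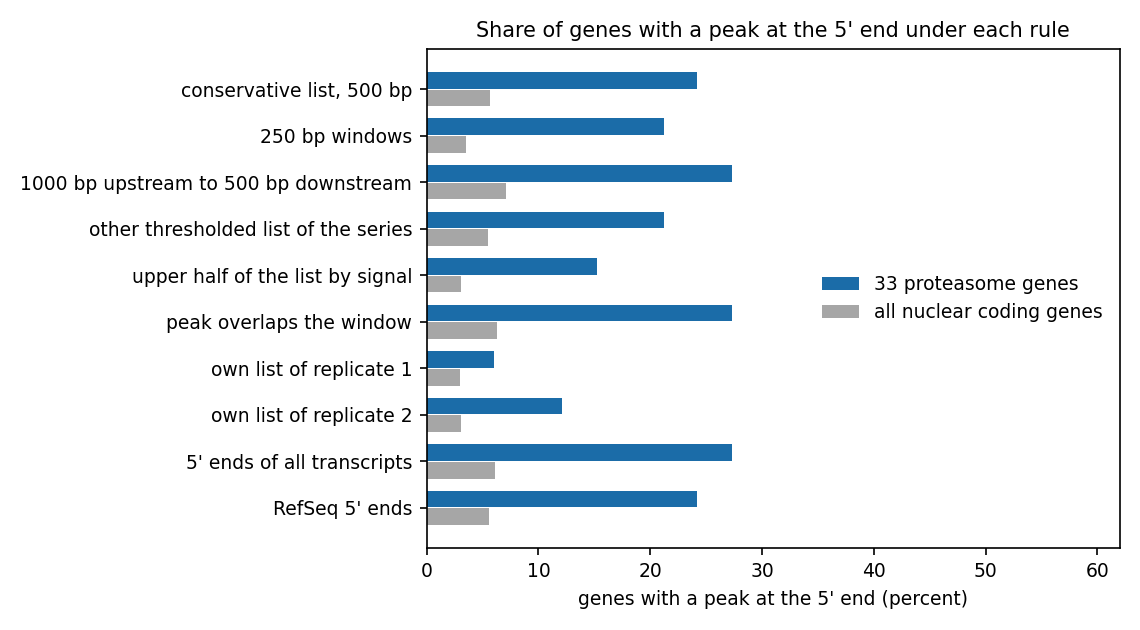
Percent of genes with a peak at the 5' end under each peak list, window or gene model, for the 33 proteasome genes (blue) and all coding genes of the nuclear chromosomes (grey). The blue bar is the longer in every pair, and both bars are shorter in the replicates' own lists, where the blue bars stand for 2 and 4 genes.

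The summits lay mostly upstream of the genes, and 5 of the 8 lay between the member and a divergently transcribed neighbour within 1000 bp. Of the 8 summits, 6 were upstream of the member's 5' end, from 121 bp (pas-4) to 276 bp (rpn-9). Over all genes with a summit, 81.5% had the nearest one upstream. The summit of rpn-3 lay 187 bp upstream of it and 257 bp upstream of hsp-110, which codes for a heat shock chaperone and is read in the opposite direction. That of pas-4 lay 121 bp from its 5' end and 156 bp from that of rpb-3, a subunit of RNA polymerase II, and falls in the exon of an annotated non-coding RNA, C36B1.16. The summit of pbs-7 (130 bp upstream) was shared with F39H11.1, that of pbs-1 (200 bp) with K08D12.3 and that of rpn-9 (276 bp) with T06D8.9. At these 5 genes the list cannot tell which gene of the pair a peak belongs to. The summit of rpt-6 lay 226 bp upstream of it with no other coding 5' end within 500 bp of it, the divergent neighbour his-72 starting 1406 bp from rpt-6. Of all 1134 coding genes with a summit, 447 (39.4%) shared it with another gene's window.

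At the remaining pair of genes the summit lay within the gene. The summit of rpn-10 was 59 bp downstream of the annotated 5' end, in an intron, and that of pas-1 was 149 bp downstream, in a coding exon. Both genes follow closely on a coding gene of the same strand. For rpn-10, mrpl-9 ends 119 bp upstream, and for pas-1, rpoa-12 ends 107 bp upstream, whereas this gap was at least 1203 bp at the other 6. Such spacing is seen in worm operons, whose downstream genes are trans-spliced, so their annotated 5' end need not be where transcription starts. Whether these genes are in operons was not examined.

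**Figure D5:**
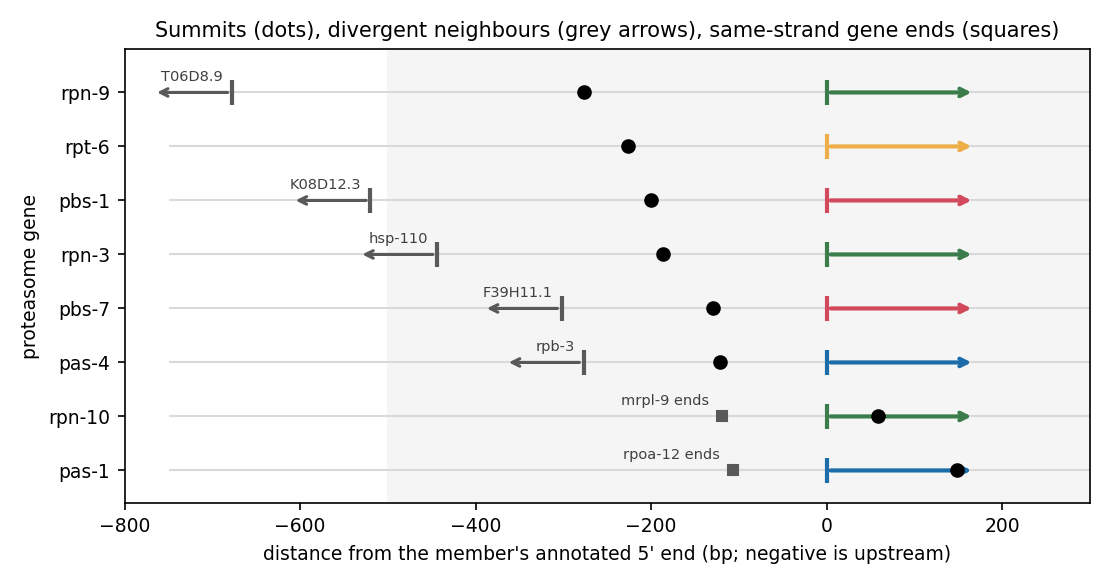
Position of the summit (black dots) relative to the annotated 5' end of each of the 8 genes (coloured bar at 0, arrow in the direction of transcription). Grey bars with arrows are 5' ends of divergent coding neighbours, grey squares the ends of coding genes of the same strand within 500 bp upstream, and the shaded band is the 500 bp window. In 5 genes the dot lies between the 2 starts drawn, and in rpn-10 and pas-1 it lies downstream of the 5' end.

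Proteasome genes often stand head to head with another gene. A divergent coding 5' end lay within 1000 bp upstream of 21 of the 33 (63.6%), against 17.7% of all coding genes. Among such genes 5 of 21 members had a summit (23.8%), against 13.4% of all coding genes of this arrangement. Among genes without such a neighbour 3 of 12 members had one (25.0%), against 4.02%. With 12 members in the smaller class, 1 gene more or fewer would move its share widely, and the difference between the classes was not tested. A coding gene of the same strand ended within 500 bp upstream of 8 members. Of these 2 had a summit (25.0%, against 6.53% of all such genes), and of the other 25 members 6 did (24.0%, against 5.49%). The members lie on chromosomes I (10 genes, 3 with a summit), II (7 and 1), III (8 and 2), IV (3 and 1) and V (5 and 1), and 0 on X. The share of all coding genes with a summit was 8.62% on I, 5.19% on II, 9.51% on III, 5.82% on IV and 3.28% on V. Chromosome X holds 13.7% of all coding genes.

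Of the 25 genes without a summit, 21 had a ranked peak short of the threshold in their window. Their best −log10 IDR had a median of 0.83 and ranged from 0.08 to 1.81. Over all 10013 coding genes with a ranked peak but no summit the median was 0.22. In the other ranked list of the series the medians were 0.47 for the members and 0.22 for all coding genes. A ranked peak of the series, whatever its IDR, lay in the window of 29 of the 33 members (87.9%), against 55.8% of coding genes. Ranked peaks of both replicates lay there in 24 members (72.7%), against 25.4%. A best value of at least 1, a level chosen after the values were seen, was reached by 9 of the 25 members without a summit (36.0%), against 4.53% of coding genes without one.

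By role, among members with a ranked peak but no summit, the alpha genes spread widest, from 0.08 to 1.81. Beside pas-7 (1.81), pas-6 reached 1.07, while pas-5 (0.30), pas-2 (0.08) and pas-3 (0.08) were low. A ranked peak lay at pas-6 in replicate 2 alone, with a signal of 23.7, and at pas-2 and pas-3 in neither replicate. For pas-7 the highest ranked signals in the window were 23.7 in replicate 1 and 26.3 in replicate 2, little below those of pas-1. Of the beta genes, pbs-2 had 1.52, pbs-3 had 1.10 and pbs-5, for the subunit with chymotrypsin-like activity, had 0.83. No ranked peak of the series lay in the windows of pbs-4 and pbs-6. The replicates' highest ranked signals were 19.8 and 29.0 at pbs-2, 17.1 and 30.1 at pbs-3 and 19.7 and 17.7 at pbs-5. The series peak with the best value at pbs-3 had a signal of 3.55.

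Of the base ATPase genes without a summit, rpt-1 had 1.26, rpt-2 had 0.83, rpt-3 had 0.70 and rpt-5 had 0.51. Replicate signals there were 21.9 and 21.0 for rpt-1, 17.5 and 18.9 for rpt-2, 31.1 and 19.1 for rpt-3, and 17.3 and 17.7 for rpt-5. These fall below the values of rpt-6, except that rpt-3 in replicate 1, at 31.1, was level with rpt-6, at 30.9. At rpt-4, listed by its outermost 5' end, there was no ranked peak.

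Of the scaffold subunit genes of the base, rpn-2 reached 1.74 and rpn-1 1.12. The ubiquitin receptor gene rpn-13 had 1.43, and rpn-11, for the subunit that removes ubiquitin chains, had 0.97. Among the lid genes, rpn-5 reached 1.43, rpn-12 and rpn-8 had 0.22 each, and rpn-7 had no ranked peak of the series. The paralogous lid genes rpn-6.1 and rpn-6.2 had 0.42 and 0.57. At rpn-2 the replicates' signals were 22.6 and 26.5, at rpn-5 19.3 and 28.4, and at rpn-13 14 and 22.1. A ranked peak of replicate 2 was absent from the windows of rpn-11, rpn-6.1 and rpn-7, which had signals of 22.2, 13.9 and 14.1 in replicate 1. So lid and base genes made up both the highest members and some of the lowest. At rpn-12 the divergent neighbour, 395 bp away, is rad-23, which codes for a shuttle that brings ubiquitinated proteins to the proteasome. No summit lay in the window of either gene.

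Genes that work with the proteasome were taken from a list of 33 symbols for its regulators and assembly, for ubiquitin and its shuttles, for deubiquitinases, and for the export of proteins from the endoplasmic reticulum that processes SKN-1. Of these 32 were found by symbol, and 6 (18.8%) had a summit, against 5.68% of coding genes. The list was chosen with earlier results of these data known, so its counts are a description and not a test. The count was 4 in the own list of replicate 1 (12.5%, against 3.02% of coding genes), 3 in that of replicate 2 (9.38%, against 3.04%) and 3 with windows of 250 bp (9.38%, against 3.52%). It was 8 (25.0%) with the window reaching 1000 bp upstream (against 7.09%), in the other thresholded list (5.45%) and with overlap in place of the summit (6.25%). The highest was cdc-48.1, for the segregase ATPase that extracts ubiquitinated proteins, with a signal of 236 in replicate 1 and 230 in replicate 2, a mean of 233 ± 3.9 (SD, n = 2). Then came ecps-1, for a proteasome-associated scaffold protein related to yeast Ecm29, with 66.1 in both. The ubiquitin gene ubq-2 had 52.2 and 67.0 at a summit 478 bp upstream, a window shared with frg-1. For akir-1, an akirin gene, the values were 50.8 and 53.7 at a summit 482 bp upstream, shared with E01A2.1. The polyubiquitin gene ubq-1 had 41.5 and 33.4 with the summit 430 bp downstream of its 5' end, and ufd-3, for a cofactor of CDC-48, had 26.0 and 28.3. In replicate 1, cdc-48.1, ecps-1, ubq-2 and akir-1 lay above all 8 proteasome subunit genes with a summit, the highest of which had 43.1. In replicate 2, ecps-1, ubq-2 and akir-1 lay below rpn-3 (105) and above the other 7. The values of ubq-1 and ufd-3 lay within the range of the subunit genes in both replicates.

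The genes skn-1, png-1 and ddi-1 held no summit. The best −log10 IDR was 1.03 in the window of skn-1 and no ranked peak lay at png-1, for the deglycosylase, or ddi-1, for the protease that processes SKN-1. Of the proteasome deubiquitinase genes usp-14 reached 1.66, ubh-1 0.69 and ubh-4 0.58. At dss-1, for a small lid subunit whose symbol is outside the rule, it was 0.08, and at psme-3, for the PA28 activator, 0.38. The highest value of a related gene without a summit was 1.89, at aip-1, and uba-1 reached 1.61. Over the 21 related genes with a ranked peak but no summit the median was 0.28, against 0.22 over all coding genes.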

How the data were processed

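ChIP-seq peaks from 2 biological replicates of 1 group were used, on ce11 per the labels. The deposited lists give a signal and a summit per peak, and the authors' ranked lists also the −log10 of the IDR. Per the file notes, the series lists derive from both replicates' alignments and each replicate's lists from its own. No aligner or peak caller is named there or in the labels. Read depth is unknown, so no limit of detection was computed. Every conservative peak was found in 1 ranked list of the series, which was used for the IDR. Distances run from the outermost annotated 5' end (Ensembl release 115) to the summit. No test was made: with a single group, counts are set beside the share over all coding genes, and p-values are absent. A summit between 2 genes counts for both. The assignment of summits to genes was tested on simulated data. Python 3.11.15 and pandas 2.3.3 were used. Every member is named, as are related genes with a summit. Members and lists were chosen with earlier results of these data known. Alternatives covered windows, lists, overlap, gene models and each replicate's own list.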

Additional observations from a re-analysis of the deposited data

How the results depend on the processing

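The count of 8 proteasome genes with a summit stayed within 1.5 times under other windows, the other thresholded list, overlap of 1 bp and other gene models, and fell to 5 among the 1165 peaks with the highest signal and to a range from 2 to 4 with 1 replicate's own list. Among those peaks, 1 of 7 alpha genes and 0 of 7 beta genes had a summit, against 3.06% of all coding genes. The count of members with a shared summit there was 3. For shared summits the share over all genes with a summit is given above for the main rule alone. In the other thresholded list 1 alpha gene was left, where 5.45% of all coding genes had a summit. With 5' ends of all transcripts 2 of 6 base ATPase genes had a summit, against 6.10% of all coding genes. With 1 replicate's own list the alpha count was 1 in both, the beta count 0 in both and the base ATPase count 0 to 1. The lid or base count was 1 to 2, the count of shared summits 1 to 3 and that of related genes 3 to 4. In the lists of replicates 1 and 2, 3.02% and 3.04% of all coding genes had a summit. With windows of 250 bp, 2 shared summits and 3 related genes were left, where 3.52% of all coding genes had a summit. The median series signal of 82.5 compares with 37.4 and 45.0 in the replicates' lists, whose scaling relative to the series list is not stated. The median best −log10 IDR of members without a summit was 0.47 in the other ranked list of the series and 0.76 with windows of 250 bp, against 0.22 and 0.19 over all coding genes without one. The replicates' lists are shorter, and how far fewer reads lower their counts was not tested. No paired analysis was possible because there is 1 group.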
